A study of Mus musculus with 6 samples.

Results

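The 9 genes that earlier work tied to myeloid-biased or aged haematopoietic stem cells were followed in long-term haematopoietic stem cells (LT-HSCs) of the mouse bone marrow: Clu, Selp, Neo1, Nupr1, Ehd3, Jam2, Plscr2, Cd9 and Cd38. The 9 genes were taken by symbol from the 26776 genes of the deposited table, and each of the 9 symbols matched a single row. Bone marrow of Trim47+/eGFP mice was the source of the cells, a genotype whose name stands for an eGFP (green fluorescent protein) allele at Trim47, and these were isolated by their eGFP level as eGFPhi (3 libraries) or eGFPlo (3 libraries). Both groups thus share the reporter genotype, and cells of reporter-free mice were not analysed here. The sources used here do not give the age of the mice, the number of animals or the surface gate behind the LT-HSC label. Because separate animals or sorts are not stated, each p-value reflects the spread among these libraries alone, which may be technical.

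Myeloid-biased stem cells are LT-HSCs whose offspring are weighted towards granulocytes, monocytes and platelets rather than lymphocytes. In mice they carry high levels of the SLAM receptor CD150 (Slamf1), and they make up a growing part of the stem cell pool with age. The products of the 9 genes work in different places: Neo1, Selp, Jam2, Cd9 and Cd38 encode cell-surface proteins, Clu a secreted chaperone, Ehd3 and Plscr2 proteins of membrane traffic and membrane lipid movement, and Nupr1 a small nuclear stress protein.

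Total counts were 11221070 to 26058391 per eGFPhi library and 11706873 to 18151852 per eGFPlo library. Levels are given as CPM, the read count relative to library size after TMM scaling, and 3 counts in a single library, the smallest number read as a signal, correspond to 0.115 to 0.267 CPM. Trim47 itself, on whose reporter the cells were sorted, averaged 23.7 ± 2.29 CPM in eGFPhi and 8.12 ± 0.818 CPM in eGFPlo (SD, n = 3 each). Of 11 genes that define LT-HSCs, 10 were higher in eGFPhi and 0 lower (0 also at an unadjusted p under 0.05, edgeR). Across all tested genes, 32.3% were higher and 31.7% lower. All 11 were detected in both groups. Kit had the smallest rise of the 10, at 1.45-fold. At an assumed biological coefficient of variation of 0.2 it was no longer called (edgeR likelihood ratio test, adjusted p = 0.06). Transcripts of other cells differed in the same libraries: the 8 granulocyte-monocyte progenitor genes summed to 288 to 295 CPM in eGFPhi and 5258 to 5366 CPM in eGFPlo, and the 10 B cell genes to 736 to 760 CPM in eGFPhi and 6121 to 6212 CPM in eGFPlo. Of 3 tested stroma genes, 2 were higher in eGFPhi, Col1a2 (13.5 ± 0.95 CPM, against 2.90 ± 0.74 CPM in eGFPlo) and Cxcl12, and Pdgfrb was lower. Their sum was 26.2 to 35.1 CPM in eGFPhi and 28.4 to 30.1 CPM in eGFPlo. Among stroma genes too low to test, Lepr had 33 counts over eGFPhi and 0 over eGFPlo, and Dcn 15 and 0. Col1a1 had 16 and 7, of which 15 were in eGFPhi replicate 2, and Pdgfra 2 and 6. The part of all these transcripts in the results that follow was not tested.

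All 9 genes were higher in eGFPhi and 0 were lower at an adjusted p under 0.05 (edgeR quasi-likelihood test, Benjamini-Hochberg adjustment over 18081 genes). Across all tested genes 64.0% passed in either direction, 32.3% as higher and 31.7% as lower, so the comparison as a whole holds many moving genes. DESeq2 called 8 of the 9 higher and 0 lower, and limma-voom 9 higher and 0 lower; 0 had a negative fold change at an unadjusted p under 0.05. For 8 of the 9, the exception being Plscr2, every eGFPhi library lay above every eGFPlo library, where 35.2% of all tested genes did so and 34.6% lay the other way. Of the 9, 7 rose at least 2-fold, a size reached by 12.9% of tested genes. The 9 genes were chosen with earlier results of these data known, so these counts are no independent evidence. The median log2 fold change of the 9 was 2.38, and that of all tested genes was 0. Added together, the 9 genes had 171, 172 and 168 CPM in eGFPhi replicates 1 to 3, against 65.0, 55.2 and 66.2 CPM in eGFPlo replicates 1 to 3. Selp and Cd9 made up most of the eGFPlo sum; without these genes the sums were 86.7, 88.6 and 81.8 CPM in eGFPhi and 9.51, 11.6 and 14.1 CPM in eGFPlo. In bulk libraries fewer cells that carry a transcript cannot be told apart from less of it per cell. An exact two-sided permutation test of single genes gave p = 0.1 for these 8 genes, the smallest value that 3 against 3 libraries allow, and p = 0.2 for Plscr2.

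**Figure D1:**
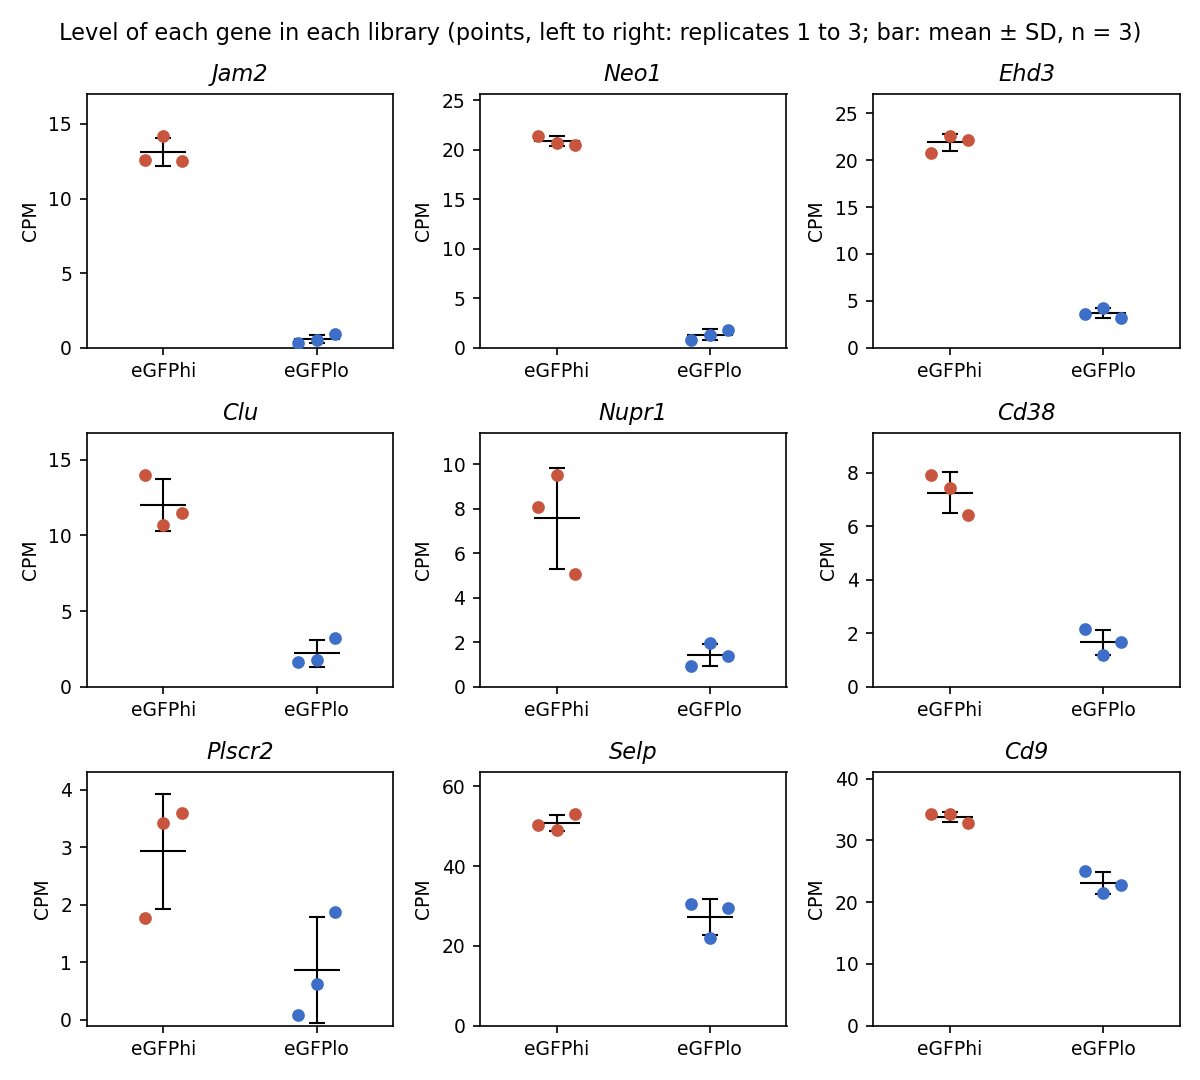
Level of each of the 9 genes in CPM (linear axes) in the 3 eGFPhi and 3 eGFPlo libraries; points from left to right are replicates 1 to 3, and bars give the mean ± SD (n = 3). The eGFPhi and eGFPlo points are apart in 8 panels, and in the Plscr2 panel eGFPlo replicate 3 (1.88 CPM) lies above eGFPhi replicate 1 (1.78 CPM).

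The surface receptors and adhesion molecules held both the widest and the narrowest differences. Jam2 (ENSMUSG00000053062, chromosome 16, positions 84774123 to 84825928, plus strand, GRCm38) encodes junctional adhesion molecule B, an immunoglobulin-family protein of cell contacts. It had 12.6, 14.2 and 12.5 CPM in eGFPhi and 0.343, 0.489 and 0.886 CPM in eGFPlo. In eGFPlo these levels rest on 4, 7 and 16 counts, so the transcript was close to the counting limit there and plainly present in eGFPhi. The log2 fold change was 4.42 (SE 0.23, adjusted p = 3.50e-06), a 21.4-fold rise, and 1.56% of tested genes rose more.

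Neo1 (ENSMUSG00000032340, chromosome 9, 58874687 to 59036441, minus strand) encodes neogenin, a receptor for netrins and repulsive guidance molecules that has been used in mice to sort myeloid-biased stem cells. Its level was 21.4, 20.7 and 20.5 CPM in eGFPhi, against 0.771, 1.33 and 1.83 CPM in eGFPlo. The eGFPhi libraries were nearly equal, with a coefficient of variation of 2.36%, while the eGFPlo libraries, at 9, 19 and 33 counts, varied by 40.4%. Neo1 rose 15.2-fold (log2 fold change 3.93, SE 0.20, adjusted p = 3.23e-06). Its promoter is shown because it held the most CG dinucleotides of the 6 promoters found for the 9 genes. The window, from RefSeq on GRCm38.p6, is chr9:59036392-59036691 on the minus strand, from 250 bases before to 50 after the start; capitals mark GGGCGG, the GC box bound by Sp-family factors, on either strand.
Neo1: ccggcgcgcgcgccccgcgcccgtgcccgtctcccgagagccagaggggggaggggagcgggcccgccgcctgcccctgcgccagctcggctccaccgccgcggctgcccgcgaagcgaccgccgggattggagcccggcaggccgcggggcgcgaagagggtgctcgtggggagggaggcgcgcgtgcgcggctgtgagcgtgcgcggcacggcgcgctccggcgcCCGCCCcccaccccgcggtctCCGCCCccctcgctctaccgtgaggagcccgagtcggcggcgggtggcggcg

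Selp (ENSMUSG00000026580, chromosome 1, 164115264 to 164150026, plus strand) encodes P-selectin, the adhesion receptor that platelets and endothelium bring to the surface on activation. It was the most abundant of the 9 by CPM in both groups, with 50.3, 49.1 and 53.1 CPM in eGFPhi and 30.5, 22.1 and 29.4 CPM in eGFPlo. The groups did not overlap, but the rise was only 1.86-fold (log2 fold change 0.90, SE 0.11, adjusted p = 0.000313). Selp exons overlap the predicted genes Gm16587 and Gm16548 on the other strand over 186 and 438 bases, and the sources used here do not give the strand setting of the counting.

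Cd9 (ENSMUSG00000030342, chromosome 6, 125460266 to 125494791, minus strand) encodes a tetraspanin, a membrane organiser abundant on platelets and on stem cells. Levels were 34.3, 34.3 and 32.8 CPM in eGFPhi, against 25, 21.5 and 22.8 CPM in eGFPlo. This 1.46-fold difference was the smallest of the 9 (log2 fold change 0.55, SE 0.07, adjusted p = 0.000298), and 22.9% of tested genes rose more. With an assumed biological coefficient of variation of 0.2, chosen after seeing the data, Cd9 missed the threshold (edgeR likelihood ratio test, adjusted p = 0.0624), while 20.1% of all tested genes were still called higher. Its exons overlap Gm26728 on the other strand over 218 bases.

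Cd38 (ENSMUSG00000029084, chromosome 5, 43868553 to 43912375, plus strand) encodes a surface enzyme that consumes NAD. Cd38 had 7.92, 7.42 and 6.42 CPM in eGFPhi and 2.14, 1.19 and 1.66 CPM in eGFPlo. The lowest eGFPhi library lay well above the highest eGFPlo library. The rise was 4.38-fold (log2 fold change 2.13, SE 0.20, adjusted p = 7.29e-05). CD38 is also known from cells of the B lineage. The 10 B cell genes examined were all lower in eGFPhi. So were the 6 plasma cell genes, at 117 to 172 CPM in sum, against 389 to 697 CPM in eGFPlo. In eGFPlo replicate 2 Jchain alone was at 535 CPM. The cell source of the Cd38 transcripts was not tested. The Cd38 promoter is shown as the most CG-poor of the 6, and as the only one of them with AGATAA, the letters bound by GATA factors. It is chr5:43868559-43868858 on the plus strand, with AGATAA and the ETS-type GGAAGT in capitals.
Cd38: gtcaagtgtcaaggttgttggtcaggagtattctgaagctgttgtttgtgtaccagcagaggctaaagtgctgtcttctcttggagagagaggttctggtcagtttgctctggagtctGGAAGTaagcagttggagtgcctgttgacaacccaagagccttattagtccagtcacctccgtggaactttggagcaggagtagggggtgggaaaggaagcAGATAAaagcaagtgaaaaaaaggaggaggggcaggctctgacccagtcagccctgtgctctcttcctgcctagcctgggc

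Clu and Nupr1, a secreted chaperone and a nuclear stress protein, rose by nearly the same factor. Clu (ENSMUSG00000022037, chromosome 14, 65968483 to 65981547, plus strand) encodes clusterin, an extracellular chaperone carried by lipoproteins and stored in platelets. Its level was 14.0, 10.7 and 11.5 CPM in eGFPhi, against 1.63, 1.75 and 3.21 CPM in eGFPlo, where replicate 3 stood above the others. The rise was 5.25-fold (log2 fold change 2.39, SE 0.25, adjusted p = 0.000108).

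Nupr1 (ENSMUSG00000030717, chromosome 7, 126623249 to 126630861, minus strand) had 8.10, 9.53 and 5.09 CPM in eGFPhi, against 0.942, 1.96 and 1.38 CPM in eGFPlo. The eGFPhi libraries were uneven, with a coefficient of variation of 30.0%, and replicate 3 was the lowest. The log2 fold change was 2.38 (SE 0.32, adjusted p = 0.000412), a 5.22-fold rise. The Nupr1 promoter is shown because it alone among the 6 holds CACGTG, an E-box, which 7.15% of all 32851 RefSeq promoters of this length hold. It is chr7:126625421-126625720 on the minus strand. This RefSeq start lies inside the gene span given above, which on the minus strand begins at 126630861. Capitals mark CACGTG and GGGCGG on either strand.
Nupr1: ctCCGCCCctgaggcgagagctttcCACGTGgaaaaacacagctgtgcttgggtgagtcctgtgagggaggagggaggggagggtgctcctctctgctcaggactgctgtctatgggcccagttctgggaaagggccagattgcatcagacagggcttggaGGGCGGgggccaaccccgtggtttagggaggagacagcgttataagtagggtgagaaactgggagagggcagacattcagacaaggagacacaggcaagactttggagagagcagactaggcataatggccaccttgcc

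Among the 7 genes that rose at least 2-fold, the membrane traffic gene Ehd3 had the smallest standard error and the scramblase gene Plscr2 the greatest. Ehd3 (ENSMUSG00000024065, chromosome 17, 73804134 to 73832094, plus strand) encodes an ATPase of endocytic recycling. It had 20.8, 22.6 and 22.2 CPM in eGFPhi and 3.60, 4.26 and 3.21 CPM in eGFPlo. The rise was 5.95-fold (log2 fold change 2.57, SE 0.12, adjusted p = 1.70e-06), with the lowest adjusted p of the 9. Its promoter, chr17:73804591-73804890 on the plus strand, is printed with GGGCGG and GGAAGT in capitals, on either strand.
Ehd3: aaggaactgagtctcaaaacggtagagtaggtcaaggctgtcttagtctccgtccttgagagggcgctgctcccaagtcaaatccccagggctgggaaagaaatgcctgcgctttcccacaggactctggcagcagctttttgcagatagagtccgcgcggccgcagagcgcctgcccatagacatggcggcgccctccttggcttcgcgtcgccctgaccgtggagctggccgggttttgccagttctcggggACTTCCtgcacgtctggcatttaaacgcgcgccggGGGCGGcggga

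Plscr2 (ENSMUSG00000032372, chromosome 9, 92275602 to 92297752, plus strand) belongs to the phospholipid scramblases, which are named for moving lipids between the leaflets of a membrane. It had 1.78, 3.42 and 3.60 CPM in eGFPhi, against 0.0857, 0.629 and 1.88 CPM in eGFPlo. These are 20, 89 and 70 counts in eGFPhi and 1, 9 and 34 counts in eGFPlo, and the groups overlapped. The fit gave a log2 fold change of 1.65 (SE 0.60, adjusted p = 0.0431), close to the threshold. Without eGFPlo replicate 3 the log2 fold change was 2.96 (adjusted p = 0.00548). Without eGFPhi replicate 2 or 3 the adjusted p was 0.105 or 0.103, and without eGFPlo replicate 1 or 2 it was 0.0648 or 0.122. DESeq2 gave an adjusted p of 0.0601, and over all alternatives the range was 4.26e-06 to 0.122. The low end came from the assumed biological coefficient of variation of 0.2 (edgeR likelihood ratio test). The Plscr2 libraries themselves varied by 34.2% in eGFPhi and 106% in eGFPlo.

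**Figure D2:**
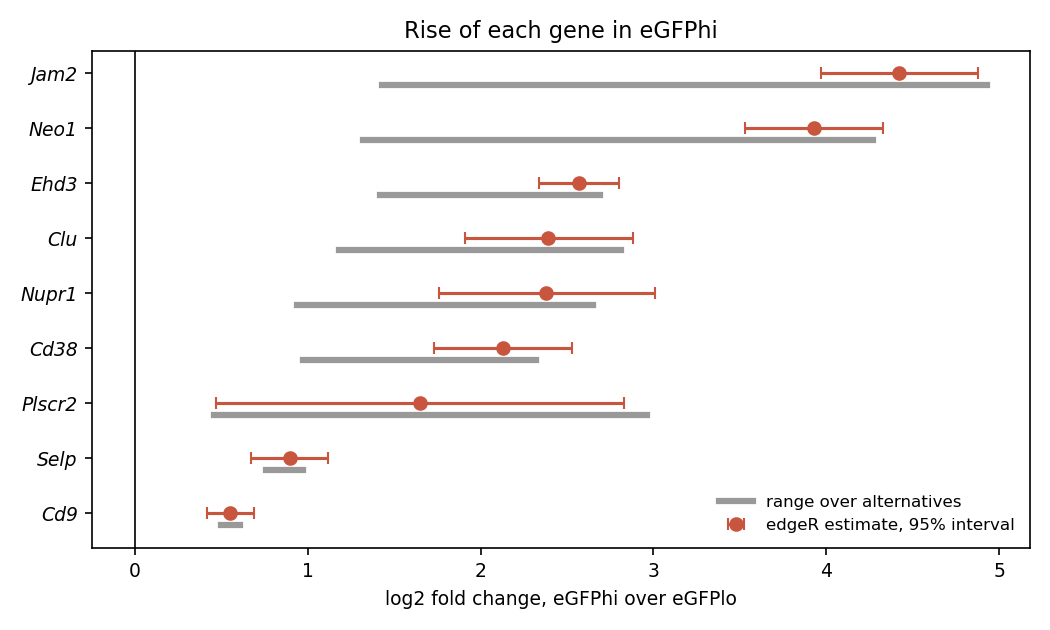
Log2 fold change of eGFPhi over eGFPlo for each gene from edgeR (red points, with a 95% interval from the standard error), and the range of the estimate over all alternatives (grey bars). Jam2 (4.42) and Neo1 (3.93) stand at the top and Cd9 (0.55) at the bottom; the low ends of the grey bars for genes that are rare in eGFPlo come from the fit to log2(FPKM + 1), whose pseudocount shrinks changes of low genes.

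The 6 promoters found for the 9 genes, those of Cd38, Cd9, Ehd3, Neo1, Nupr1 and Selp, were of different kinds. Their starts are those of RefSeq, and the windows of Cd38, Ehd3 and Nupr1 lie inside the gene spans given above. Neo1 held 54 CG dinucleotides in 300 bases, more than in 99.7% of all promoters in the table, Ehd3 24 and Cd9 18. Nupr1 held 6, Selp 4 and Cd38 1, against a median of 7 over the 32851 promoters. The genes with the most CG dinucleotides included strong risers (Neo1 and Ehd3) and the weakest (Cd9). A relation between CG content and the size of the rise was not tested, and 6 promoters are too few to decide it. The GC box GGGCGG was present in Cd9, Ehd3, Neo1 and Nupr1 and in 35.7% of all promoters; GGAAGT was present in Cd38, Ehd3 and Selp and in 23.8%. AGATAA was in Cd38 alone and in 11.2% of all promoters, and TGTGGT, the RUNX-type letters, was in none of the 6 and in 16.8%. Both strands were searched, the motifs do not share letters at any match printed, and a match is a description of the letters, not of binding.

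Levels between genes were compared per length, as CPM per kilobase of merged GENCODE M21 exons. In eGFPhi, Cd9 stood highest at 16.5 ± 0.407 and Selp next at 11.5 ± 0.468 CPM per kilobase (SD, n = 3). Clu (3.50 ± 0.501), Ehd3 (3.33 ± 0.141) and Nupr1 (3.01 ± 0.902) followed and were not separated beyond their spread. Neo1 was at 2.40 ± 0.0566, Jam2 at 2.17 ± 0.156 and Cd38 at 1.86 ± 0.196, and Plscr2 was lowest at 0.922 ± 0.315. In eGFPlo, Cd9 (11.3 ± 0.866) and Selp (6.19 ± 1.04) again led. Below them Clu (0.639 ± 0.257), Nupr1 (0.568 ± 0.202), Ehd3 (0.563 ± 0.0811) and Cd38 (0.428 ± 0.123) overlapped, and Plscr2 (0.272 ± 0.290), Neo1 (0.150 ± 0.0606) and Jam2 (0.0947 ± 0.0465) were at the bottom. By mean, Neo1 and Jam2 were thus the rarest of the 9 per length in eGFPlo, and the sixth and the seventh of the 9 in eGFPhi. The spread of Plscr2 in eGFPlo covered both. In eGFPlo replicate 1 Plscr2 was at 0.0269 CPM per kilobase, below Neo1 (0.0885) and Jam2 (0.0567).

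Relatives and partners of the surface genes moved in both directions. Across all tested genes 64.0% passed the threshold, 32.3% as higher and 31.7% as lower. These shares stand beside the counts of every list below. Of the 4 tested genes on the list of netrin receptors and neogenin ligands, 1 rose and 0 fell (3 and 0 at an unadjusted p under 0.05, edgeR). The count of risers was 2 at the assumed variation of 0.2, 2 without eGFPhi replicate 2 and 3 without eGFPlo replicate 3. Under some alternatives, list genes that the main filter removed could also be tested. In that wider set 1 gene was lower without eGFPhi replicate 1, without eGFPlo replicate 2 and by DESeq2. The 4 genes of the main test had positive fold changes there, while the removed netrin gene Ntn1 had 0 counts over eGFPhi and 23 over eGFPlo. The riser was Rgmb, encoding a repulsive guidance molecule that binds neogenin, at 6.94 ± 0.645 CPM in eGFPhi and 1.29 ± 0.193 CPM in eGFPlo (log2 fold change 2.41, SE 0.16, adjusted p = 1.21e-05). The netrin gene Ntn4 (adjusted p = 0.0523) and the netrin receptor genes Unc5b (0.0711) and Unc5a (0.702), chosen with their values in view, missed the threshold by edgeR.

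Of 6 genes related to Jam2, 4 rose and 1 fell. Jam3, encoding the third junctional adhesion molecule and a binding partner of the Jam2 product, averaged 14.3 ± 2.15 CPM in eGFPhi and 1.02 ± 0.335 CPM in eGFPlo, a 14.1-fold rise. Esam, an endothelial and stem cell adhesion gene of the same superfamily, was at 43.1 ± 2.49 CPM in eGFPhi and 11.9 ± 0.599 CPM in eGFPlo. F11r, encoding the first family member, rose 2.63-fold but unevenly, with 14.1, 31.6 and 30.8 CPM in eGFPhi, against 9.0, 9.71 and 10.7 CPM in eGFPlo. The integrin gene Itga4, whose product pairs with a beta subunit to bind junctional adhesion molecule B, was 1.43-fold lower in eGFPhi. The other integrin gene, Itgb1, rose 1.08-fold. With the biological coefficient of variation set to 0.2, 3 were higher and 0 lower: the calls of Itga4 (adjusted p = 0.0758) and Itgb1 (0.754) were lost by edgeR. In the quasi-likelihood test the scaffold gene Tjp1 missed the threshold (adjusted p = 0.175).

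Among 6 tested genes of P-selectin relatives, ligands and ligand synthesis, 2 rose and 3 fell. Cd24a, encoding a small glycoprotein that can bind P-selectin, was 1.43-fold lower in eGFPhi. Selplg, encoding the main P-selectin ligand and named after its values were seen, was 1.34-fold lower, at 66.3 ± 4.77 CPM in eGFPhi and 88.4 ± 1.63 CPM in eGFPlo. Podxl, encoding a sialomucin of the CD34 family, rose 4.69-fold, to 23.4 ± 1.88 CPM in eGFPhi, against 4.94 ± 0.729 CPM in eGFPlo. At a coefficient of variation of 0.2, 1 gene was higher and 1 lower: Podxl was still called, but Cd24a (adjusted p = 0.0743) and Selplg (0.171) were not, by edgeR.

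Tetraspanins and their partners went both ways: of 16 tested, 8 rose and 4 fell. The leukocyte tetraspanin genes Cd53 and Cd37 were 2.34-fold and 2.74-fold lower in eGFPhi, and Tspan3 was 1.91-fold higher. Cd81 and Cd151, close relatives of Cd9 that were named after their values were seen, were 1.36-fold and 1.66-fold higher, near the 1.46-fold of Cd9. The count of risers was 5 without eGFPlo replicate 2, and also 5 at a coefficient of variation of 0.2, where Cd81 lost its call (edgeR, adjusted p = 0.133).

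Of 13 tested genes of NAD metabolism, 3 rose and 3 fell. Bst1, the relative of Cd38 that encodes another surface enzyme of cyclic ADP-ribose, was opposite to it. Bst1 had 1.6, 0.499 and 0.668 CPM in eGFPhi, against 4.88, 5.66 and 5.87 CPM in eGFPlo, 6.72-fold lower (log2 fold change -2.75, SE 0.34, adjusted p = 0.000288). Naprt, which makes NAD from nicotinic acid, rose 1.77-fold, and the deacylase gene Sirt7 was 1.32-fold lower. At a coefficient of variation of 0.2 only Naprt was called higher and only Bst1 lower, and Sirt7 lost its call (edgeR, adjusted p = 0.202).

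The Ehd and scramblase families each held a relative of a different behaviour. Ehd4 was far more abundant than Ehd3 by CPM and rose only 1.21-fold, at 114 ± 3.74 CPM in eGFPhi and 94.1 ± 2.07 CPM in eGFPlo, and Ehd2 did not pass the threshold (adjusted p = 0.454). Ehd4 lost its call at a coefficient of variation of 0.2 (edgeR, adjusted p = 0.402). Ehd1 had 9 counts over the eGFPhi libraries and 10 over the eGFPlo libraries and was too low to test. Plscr4 rose 2.90-fold with little spread, at 22.1 ± 0.863 CPM in eGFPhi and 7.60 ± 0.118 CPM in eGFPlo (adjusted p = 2.91e-06). Plscr1 did not pass the threshold (adjusted p = 0.118), and Plscr3, at 58.2 ± 2.76 CPM in eGFPhi and 64.9 ± 3.49 CPM in eGFPlo, was just past it (adjusted p = 0.0420). That call of Plscr3 was lost under 12 of 16 alternatives, among them without eGFPhi replicate 1 or 2 (adjusted p = 0.129 or 0.0828) and without eGFPlo replicate 1 or 2 (0.0539 or 0.117). The sources used here do not say how reads shared between similar family members were assigned.

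Of 7 tested receptors and partners of clusterin, 2 rose and 3 fell. Lrp1 and Lrp8, both encoding lipoprotein receptors, were 1.60-fold and 1.44-fold higher, and Xrcc6, encoding a DNA repair protein that binds nuclear clusterin, was 1.49-fold lower. At a coefficient of variation of 0.2, Lrp1 was the only gene of the list called higher and Xrcc6 the only one lower, and Lrp8 lost its call (edgeR, adjusted p = 0.0739). Among 9 stress genes linked to Nupr1, 5 rose and 1 fell; the count of risers was 3 under 7 alternatives, 5 of which left out 1 library (eGFPhi replicate 2 or 3, or any eGFPlo library). At a coefficient of variation of 0.2, 1 was higher and 0 lower. Trib3, a pseudokinase gene induced with Nupr1 in the amino acid and endoplasmic reticulum stress response, had 11.5, 12.1 and 8.58 CPM in eGFPhi, against 1.8, 1.47 and 2.27 CPM in eGFPlo. This was a 5.71-fold rise (adjusted p = 3.47e-05). Ddit3 and Sesn2 of the same response rose 1.42-fold and 1.49-fold but lost their calls at a coefficient of variation of 0.2 (edgeR, adjusted p = 0.0905 and 0.0594), and Atf4, the factor upstream of them and chosen with its values in view, missed the threshold (adjusted p = 0.153).

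**Figure D3:**
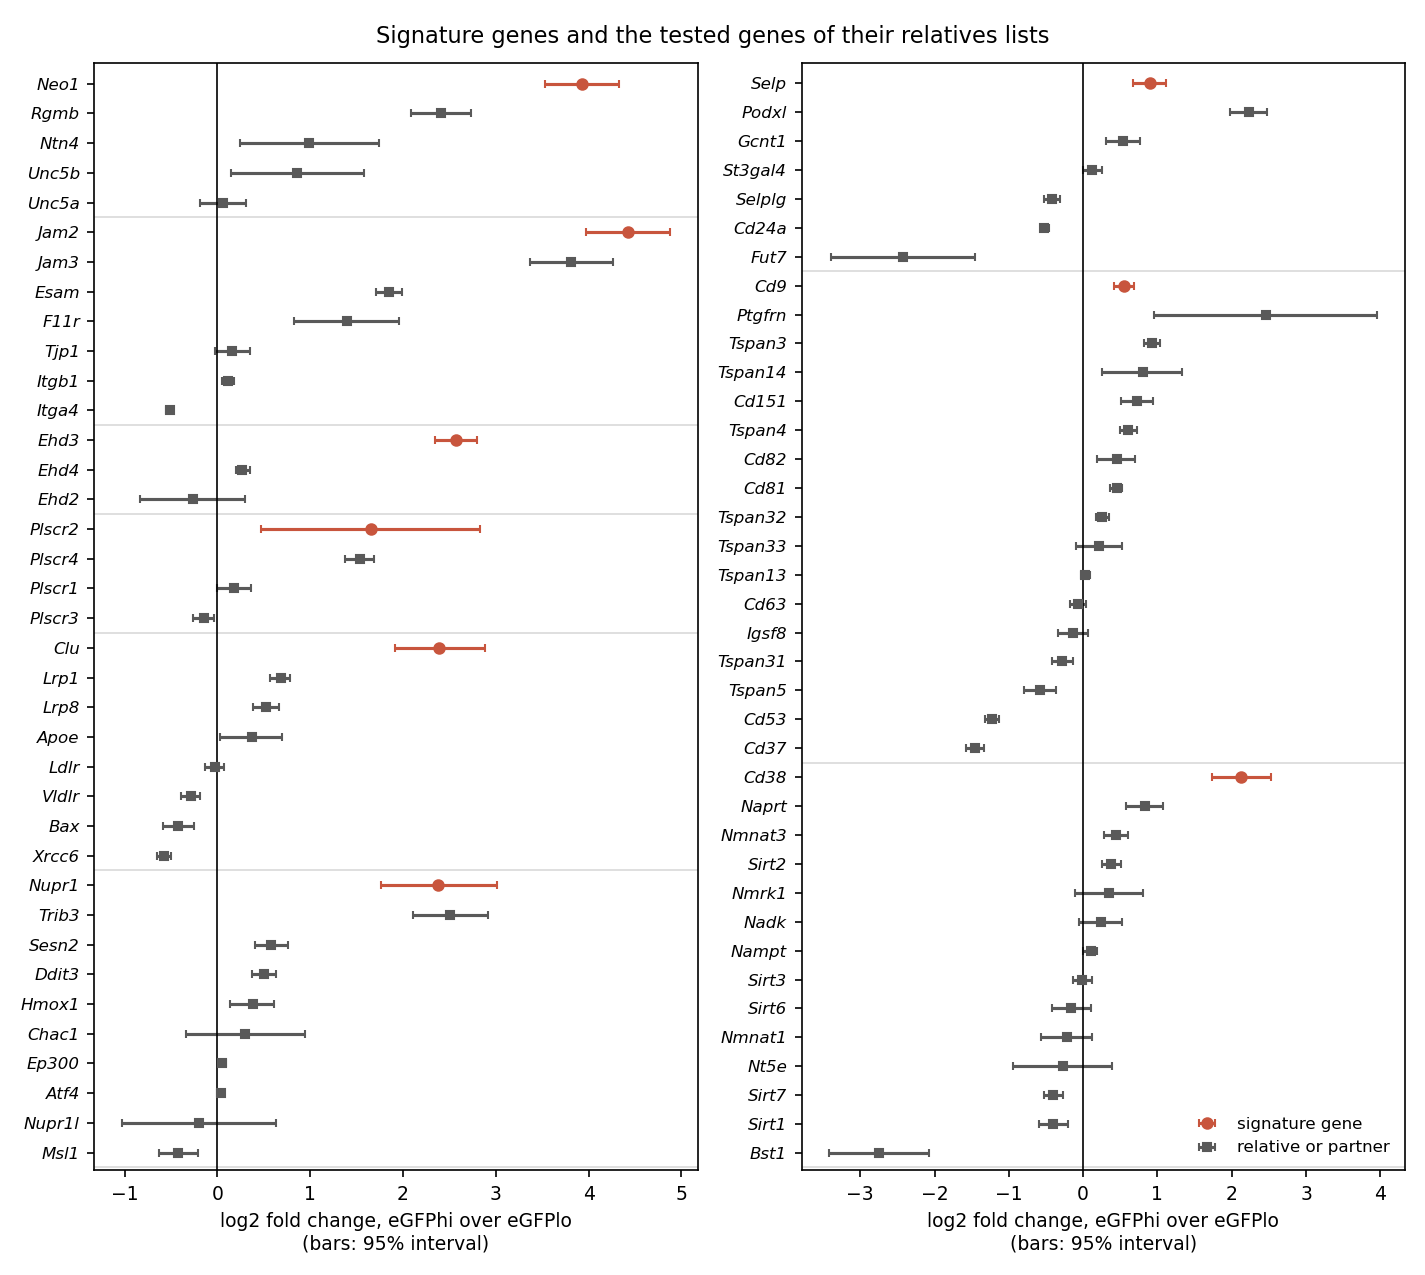
Log2 fold change of eGFPhi over eGFPlo with a 95% interval for each signature gene (red circles) and the tested genes of the list drawn up around it (grey squares), with lists separated by lines. Jam3 and Rgmb stand to the right with Jam2 and Neo1, whereas Bst1 stands left of zero, opposite to Cd38.

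The wider programme was followed with 22 other genes tied to aged, myeloid-biased or platelet-biased stem cells. This list, like the 9 genes, was drawn up with results of these data known, so its direction is no independent evidence. Of the 21 tested, 19 rose and 2 fell; their median log2 fold change was 1.75. Sbspon had 2 counts over eGFPhi and 5 over eGFPlo and was not tested, and Slamf1 and Procr are also on the LT-HSC list. Vwf, encoding von Willebrand factor and marking platelet-biased stem cells, had 186, 192 and 183 CPM in eGFPhi, against 15.8, 17.5 and 16.0 CPM in eGFPlo. Egr1, an immediate early transcription factor gene of quiescent stem cells, was the most abundant of the list by CPM and rose 2.47-fold. Aldh1a1, a retinaldehyde dehydrogenase gene, rose 5.78-fold, the cation channel gene Trpc6 4.84-fold and the multimerin gene Mmrn1 7.72-fold.

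The members of that list that fell were the metallothionein genes Mt1 and Mt2, named because they were the only 2 to fall; they encode small metal-binding proteins. Mt1 had 12, 9.61 and 10.4 CPM in eGFPhi, against 21.7, 23.6 and 21.8 CPM in eGFPlo, and was lower with no overlap (log2 fold change -1.08, SE 0.10, adjusted p = 6.34e-05). Mt2 had 0, 0 and 0.771 CPM in eGFPhi, so its level there rests on replicate 3, against 5.05, 3.98 and 6.92 CPM in eGFPlo. Without eGFPhi replicate 3 the fitted log2 fold change of Mt2 was -9.45 in place of -4.29, a value that depends on the prior count because the other eGFPhi libraries hold no read.

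Lymphoid-primed genes, the other arm of the contrast that names the signature, were lower. Of 13 tested, 11 fell and 0 rose (1 higher at an unadjusted p under 0.05, edgeR), while 31.7% of all tested genes were lower; the median of the list was -2.27 on the log2 scale. The count of risers was 1 without eGFPlo replicate 2 and 0 by DESeq2. Dntt, whose product adds untemplated nucleotides to rearranging antigen receptor genes, was at 3.65 ± 0.435 CPM in eGFPhi and 204 ± 6.07 CPM in eGFPlo. The recombinase gene Rag1 was at 0.533 ± 0.0826 CPM in eGFPhi and 35.8 ± 2.04 CPM in eGFPlo. Because B cell and progenitor genes were lower in the same libraries, whether the lymphoid-primed transcripts came from the stem cells was not tested. The members without a call were Mef2c (adjusted p = 0.682) and Cd27 (adjusted p = 0.0523), chosen with their values in view.

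**Figure D4:**
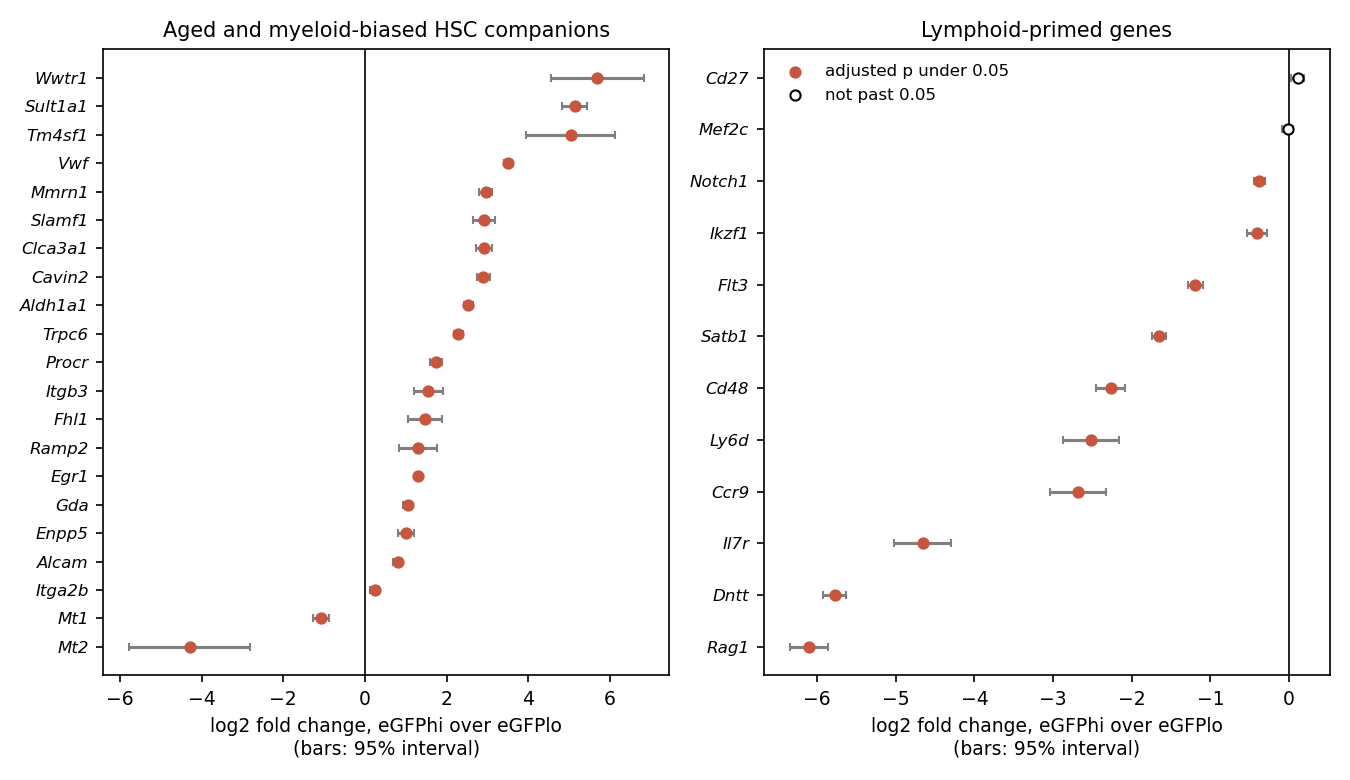
Log2 fold change of eGFPhi over eGFPlo with a 95% interval for the tested companions of the signature (left) and for the lymphoid-primed genes (right); filled points passed an adjusted p of 0.05, and Rag2, with no read in eGFPhi, is left out. Wwtr1 and Tm4sf1 had reads in only 1 eGFPlo library. All companions lie right of zero except Mt1 and Mt2, and 11 of 13 lymphoid-primed genes, Rag2 included, were lower.

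Several of the 9 genes are also known from platelets and endothelium, and markers of those cells were measured beside them. Of 10 tested megakaryocyte and platelet genes, 6 rose and 1 fell, and their sum was 134 to 143 CPM in eGFPhi and 103 to 110 CPM in eGFPlo. Most of that sum was Itga2b, also on the list of companions, at 97.0 ± 3.16 CPM in eGFPhi and 82.3 ± 5.68 CPM in eGFPlo. Itga2b rose 1.18-fold and lost its call at a coefficient of variation of 0.2 (edgeR, adjusted p = 0.481). Gp9 and Pf4 rose 4.10-fold and 2.04-fold. Ppbp, encoding the abundant platelet basic protein, was present at 0, 0.192 and 0 CPM in eGFPhi, against 5.40, 5.66 and 5.37 CPM in eGFPlo, opposite to Clu, Selp and Cd9. Of 5 tested endothelial genes 3 rose and 2 fell, with a sum of 151 to 155 CPM in eGFPhi and 95.5 to 102 CPM in eGFPlo. The endothelial receptor genes Tek and Kdr rose 3.81-fold and 18.5-fold, and Tek alone was at 63.1 CPM in eGFPhi and 16.6 CPM in eGFPlo. The fallers were Pecam1 and Plvap. Pecam1 was at 58.8 ± 1.74 CPM in eGFPhi and 68.5 ± 4.24 CPM in eGFPlo, and lost its call at a coefficient of variation of 0.2 (edgeR, adjusted p = 0.516). Plvap was at 1.85 ± 0.106 CPM in eGFPhi and 3.60 ± 0.774 CPM in eGFPlo. The other 3 endothelial genes were too low to test. The defining gene Cdh5 had 0, 0 and 0 counts in eGFPhi, against 0, 0 and 8 in eGFPlo, and Sele had 0, 0 and 0 counts in eGFPhi, against 1, 0 and 2 in eGFPlo. Ptprb went the other way, with 5, 12 and 13 counts in eGFPhi, against 0, 0 and 2 in eGFPlo.

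The 9 genes lie on 8 chromosomes, Neo1 and Plscr2 sharing chromosome 9 at a distance of many megabases. The nearest tested protein-coding gene on each side was looked up. Of the 17 neighbours reported, 6 were higher, 5 lower and 6 not called, against 32.3% higher and 31.7% lower among all tested genes. Neighbours of the strongest risers did not rise: around Jam2, Mrpl39 was lower (log2 fold change -0.27) and Atp5j not called, and around Neo1, Nptn was not called and Adpgk was lower (-0.78).

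A few loci held neighbours with wide differences of their own. Cd9 lies 52.0 kb from Vwf and 79.5 kb from Plekhg6, and both of these rose far more than Cd9, with log2 fold changes of 3.51 and 4.48. Plekhg6 was at 7.22 ± 0.561 CPM in eGFPhi and 0.319 ± 0.279 CPM in eGFPlo. Selp lies 1.81 kb from the coagulation factor V gene F5, which rose (22.3 ± 0.722 CPM in eGFPhi and 16.5 ± 1.55 CPM in eGFPlo, adjusted p = 0.00301). Cd38 lies 24.6 kb from its relative Bst1, and the pair moved in opposite directions. Plscr2 lies 3.32 kb from Plscr1, which was not called, and 160 kb from Plscr4, which rose.

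**Figure D5:**
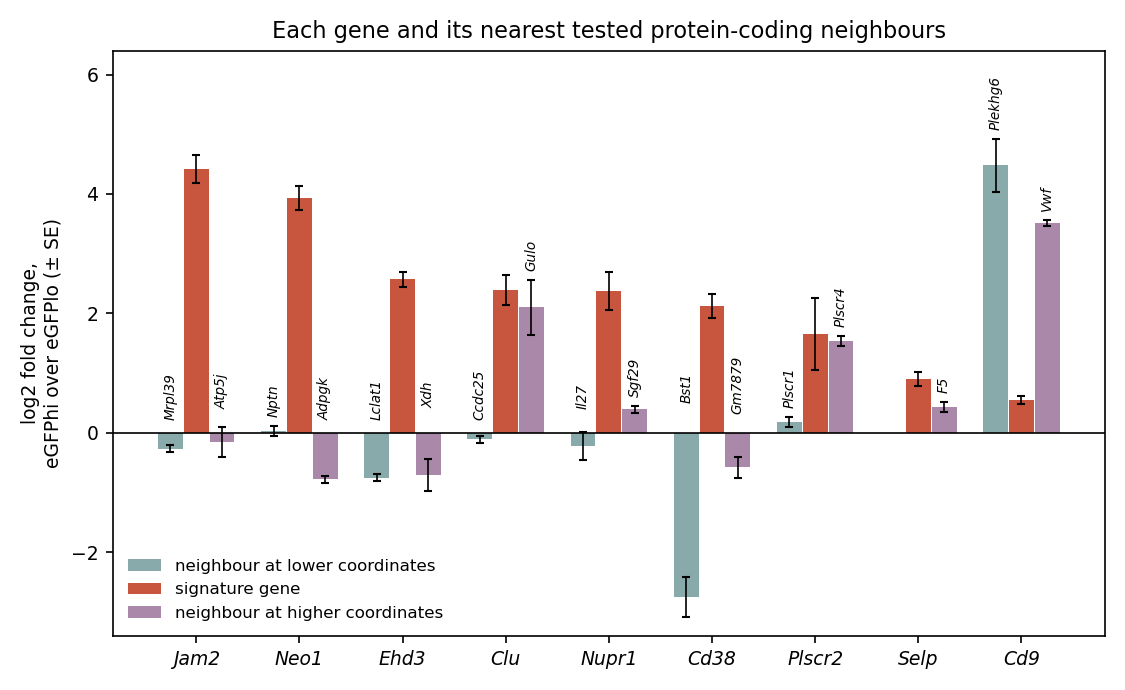
Log2 fold change of eGFPhi over eGFPlo (bars, ± SE) for each of the 9 genes (red, middle) and the nearest tested protein-coding gene at lower and at higher coordinates (side bars, named). Cd9 is flanked by genes that rose more than it did, Bst1 points downward beside Cd38, and the neighbours of Jam2 and Neo1 lie near or below zero.

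For each of the 9 genes, the most similar gene across the 6 libraries was found by the smallest distance between centred log2 CPM profiles, among genes of at least 5 CPM on average. With 2 groups of libraries such likeness mainly reflects the group difference. The nearest to Neo1 was Jam2, another of the 9 (distance 0.552), while the nearest to Jam2 was Clip3 (0.273). Ehd3 was nearest to Zfp618 (0.180), Clu to Ldhd (0.318), Cd38 to Thsd4 (0.239) and Nupr1 to Myom1 (0.677). Selp paired with Il27ra (0.145) and Cd9 with Tceanc2 (0.0763). Plscr2 had no close match: its nearest gene, Cd99l2, was at a distance of 1.5, and that gene too was highest in replicate 3 within eGFPlo, at 14.6 CPM, against 3.60 and 6.01 CPM in eGFPlo replicates 1 and 2. Replicate 3 was the highest eGFPlo library for 4 of the 9 genes, Clu, Neo1, Jam2 and Plscr2, and for 33.5% of all tested genes.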

How the data were processed

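Poly-A selected RNA was made into stranded paired-end libraries, per the labels' protocols. The submitters' processing notes name CASAVA 1.8, HISAT2, StringTie and edgeR without roles, and the builds hg38 and GRCm38. Raw gene-level counts and the authors' FPKM values stand side by side in the deposited table, per the file headers; no counter or strand setting is given in the sources used here. Gene positions in the table are on GRCm38 (26471 of 26776 genes match GENCODE M21 exactly, all 9 members among them).

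The counts were tested in R 4.3.3 with edgeR 4.0.16: filterByExpr (minimum count 10, minimum total 15; 18081 genes kept, all 9 members among them), TMM scaling, the quasi-likelihood test between both groups with no covariate, and Benjamini-Hochberg adjustment with a threshold of 0.05. The pipeline was tested on simulated data. The common biological coefficient of variation was 0.0941. Intervals of 95% use the standard error and a normal approximation, and cover the spread between libraries only. FPKM served in alternatives only, with limma 3.58.1; DESeq2 1.42.0 was another.

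The members and lists were chosen with earlier results of these data known. The text names all 9 members, Trim47, from each list the called genes of smallest p (at most 3, or 5 for the companions), every EHD, JAM and scramblase relative, and 1 most similar gene per member; neighbours and other genes were chosen after their values were seen. The neighbour search and the promoter motifs were added after the design was fixed. A gene is not reported here and was left out of the lists and neighbours.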

Additional observations from a re-analysis of the deposited data

How the results depend on the processing

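Results were recomputed under 16 alternatives: RLE or upper-quartile scaling, all genes kept, a filter of 5 CPM in 3 libraries, DESeq2, limma-voom, limma on log2 FPKM plus 1 or 0.1, the replicate block, an assumed coefficient of variation of 0.2 (added after seeing the data) and leaving out each library. All 9 genes kept a positive fold change wherever tested, and 8 or 9 were called higher under each alternative. Plscr2 is not tested under the filter of 5 CPM. Its log2 fold change was 1.74 by DESeq2, no longer past the threshold, and 1.22 to 2.96 with 1 library left out. That of Cd9 was 0.55 with the assumed coefficient of variation, also no longer past it. The other 7 genes passed under all alternatives. The median over the 9 was 0.97 on log2(FPKM + 1) and 2.06 on log2(FPKM + 0.1), where the pseudocount shrinks low genes, and 2.16 to 2.47 with 1 library left out. With the assumed coefficient of variation 3637 genes were higher and 2982 lower. The companions had 1 member lower under the filter of 5 CPM, which Mt2 does not pass. The lymphoid-primed list had 1 member higher with upper-quartile factors, no filter, the filter of 5 CPM and both FPKM fits, and 0 to 1 with 1 library left out; the cause was not tested.

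Replicate numbers are shared between the groups but are not said to mark an animal or day, and same-numbered libraries did not deviate together (r = -0.0133, 0.000555 and -0.0108 across genes). With the replicate block 5551 genes were higher and 5414 lower, and all 9 members were called higher with a median log2 fold change of 2.35; Plscr2 had 1.83 (adjusted p = 0.0226). Depth limits Jam2, Neo1 and Plscr2 most, since their eGFPlo levels rest on 27, 61 and 44 counts over 3 libraries. Groups of 3 libraries were not searched for outliers.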
